A study of Mus musculus with 122 samples.

Results

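CTCF-only distal sites are peak regions of transgenic CTCF away from promoters in mouse embryonic stem cells. They did not overlap a site of its paralogue CTCFL called in both replicates of cells that kept their own CTCF. A CTCF ID site was a region with a FLAG peak in both replicates of cells that made CTCF from a transgene while their own CTCF was depleted. CTCFL D sites were called in the same way, in cells that made CTCFL while their own CTCF was present. Endogenous CTCF was thus depleted for CTCF ID sites and present for CTCFL D sites. A CTCF ID site was taken as CTCF-only when no CTCFL D site touched it by 1 bp. It was distal when its middle lay over 1 kb from every transcription start site of the basic GENCODE transcript set. On chromosomes 1 to 19 and X, 15209 of 30317 CTCF ID sites (50.2%) met this rule. The 12040 distal CTCF ID sites that did overlap a CTCFL D site are called shared distal sites and serve for comparison. The sites were thus chosen by the measured peaks of CTCF ID and CTCFL D and by their distance to start sites, so that none of these is a result. The nearest CTCF-only distal site stood 1001 bp from a start site, against 999.5 bp for the farthest CTCF-only site left out. The smallest gap between a CTCF-only distal site and a CTCFL D site was 7 bp, the smallest overlap of a shared distal site was 5 bp, and 576 CTCF-only distal sites (3.79%) had a CTCFL D site within 1 kb.

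All lines derived from E14Tg2a embryonic stem cells (129/Ola, XY). In each, both endogenous Ctcf alleles carried an auxin-inducible degron with eGFP, TIR1 was present, and the Tigre locus held a doxycycline-inducible FLAG-tagged transgene fused to mRuby2. Each line was an individual clone, so that line and transgene cannot be told apart. Cells were untreated (U) or received 500 µM IAA, an auxin that triggers CTCF degradation (I), 1 µg/ml Dox, which induces the transgene (D), or both (ID). The transgene encoded CTCF, CTCFL or a chimera. In LCL the zinc fingers of CTCF stood between the termini of CTCFL, in CLC the zinc fingers of CTCFL stood between the termini of CTCF, and in CLL and LLC the zinc fingers of CTCFL had the N terminus and the C terminus of CTCF, respectively. By the labels, treatment lasted 48 h for the FLAG libraries of both CLL and LLC and for the RNase and mock samples, which were ID cells of the CTCF and CTCFL lines. It lasted 24 h in the remaining FLAG libraries, in RAD21 ChIP-seq and in the treated Hi-C samples analysed here. Each ChIP-seq group had 2 replicates, and nothing in the labels says whether these came from separate cultures, so that p-values measure the spread between these samples, which may be technical.

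CTCF is a zinc finger protein that stops the loop-extruding cohesin complex, and the edges of chromatin domains in mammalian cells typically carry CTCF motifs that point into the domain. RAD21 is the kleisin subunit of cohesin. CTCFL, also named BORIS, is normally found in male germ cells, and it has zinc fingers much like those of CTCF between unrelated termini.

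The peak lists differed in length, and no reads were given, so that the depth of the ChIP-seq libraries is unknown. CTCFL D, which chose the sites, had 38928 peaks in replicate 1 and 24033 in replicate 2. CTCF after RNase had 24896 and 8584 peaks, and RAD21 lists ranged from 163 to 22765 regions. RNA-seq covered the CTCF, CTCFL, LCL and CLC lines, not CLL and LLC. In its libraries all 10 embryonic stem cell markers were found, with sums of 93528 to 277216 normalized counts per library. Those of 13 markers of other cell types were 1645 to 9162. Not every marker followed the sums. Utf1, with a median of 770, lay below Dazl (2121) and Ddx4 (1047) of the germ line and Gata4 (1072) of endoderm. The other embryonic stem cell markers had medians of at least 9643.

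Of the CTCF-only distal sites, 8759 (57.6%, exact 95% interval 56.8 to 58.4, counting error only) held a CTCF motif of 14 bases within 50 bp of the summit, against 61.3% of all CTCF ID sites. The share was 66.5% at shared distal sites and 4.66% in windows 1000 bp away from the CTCF-only distal sites. CTCF-only and shared distal sites differ in CTCF strength, and motif shares by strength are given below. The motif matrix had been estimated on shared distal sites. The most frequent bases over the motifs show how the classes differ:

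CTCF-only distal: CCAGAAGAGGGCAC

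Shared distal: CCACCAGGGGGCGC

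Position 8 was A in 64.6% of the motifs of CTCF-only distal sites and in 40.5% of those of shared distal sites. Position 14 was T in 24.7% against 8.24%, position 5 was A in 44.03% against 28.1%, and position 3 was A in 90.5% against 79.7%. Around the summit, windows of 101 bp held on average 1.27 CpG dinucleotides at CTCF-only distal sites and 2.05 at shared distal sites, with a median GC content of 49.5% and 52.5%. The following 8 sites carry results given further on, and their motif is printed in capitals, 5′ to 3′ on the strand of the motif, with 20 bases of GRCm38 on either side.

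Near Tcf3, chr10:80446332-80446385, plus strand: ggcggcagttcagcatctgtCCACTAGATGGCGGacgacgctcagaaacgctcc

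Near Gprc5b, chr7:118996341-118996394, minus strand: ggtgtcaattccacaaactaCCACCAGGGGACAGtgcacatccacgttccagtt

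Between Gm9703 and Grm4, chr17:27534937-27534990, plus strand: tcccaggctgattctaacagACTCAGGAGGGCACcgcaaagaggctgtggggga

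Kcnip2 intron, chr19:45813427-45813480, plus strand: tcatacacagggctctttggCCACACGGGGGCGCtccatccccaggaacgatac

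Intergenic on X, chrX:62180268-62180321, plus strand: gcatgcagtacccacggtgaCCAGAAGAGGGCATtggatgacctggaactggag

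Atxn7l1 intron, chr12:33334062-33334115, minus strand: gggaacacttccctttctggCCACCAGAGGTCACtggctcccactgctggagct

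Ttc22 intron, chr4:106631111-106631164, plus strand: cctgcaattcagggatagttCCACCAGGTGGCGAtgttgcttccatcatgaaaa

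Near Pou5f1, chr17:35496689-35496742, plus strand: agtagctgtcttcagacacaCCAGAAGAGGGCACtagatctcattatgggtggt

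The site near Pou5f1 held the most frequent base of CTCF-only distal sites at every position. The site near Tcf3 and the Kcnip2 intron site ended in GCGG and GCGC, with a CpG within the motif, whereas the X site ended in GCAT.

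CTCF-only distal sites were spread over gene bodies and intergenic sequence. Of them, 48.5% lay in introns, 46.7% between genes and 4.81% in exons, while introns made up 41.3%, intergenic sequence 53.9% and exons 4.81% of the genome. Exons held 8.46% of the shared distal sites. The median distance to a start site was 14.5 kb for CTCF-only and 11.8 kb for shared distal sites. On the X chromosome, 444 of the distal CTCF ID sites were CTCF-only and 136 shared, a CTCF-only share of 76.6%. The share on the autosomes ranged from 50.05% on chromosome 11 to 61.8% on chromosome 13. Neighbouring CTCF-only distal sites were a median of 73.3 kb apart, and 10.97% had the next one within 10 kb.

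CTCF peaks were weaker at these sites than at shared distal sites. The lower −log10 q of both CTCF ID replicates, a measure of peak strength, had a median of 17.9 at CTCF-only and of 40.8 at shared distal sites. CTCF ID chose the sites, so this is a description. In the CTCF D libraries, where endogenous CTCF was present, FLAG-CTCF peaks covered 95.2% and 97.6% of CTCF-only distal sites and 99.1% and 98.9% of shared distal sites. Both D replicates had a peak at 14281 CTCF-only distal sites (93.9%), against 96% of all CTCF ID sites. For later comparisons the distal CTCF ID sites were divided by strength into 4 classes of equal size, of which class 1 (the weakest) held 5028 CTCF-only and 1683 shared sites and class 4 (the strongest) 2079 CTCF-only sites. From class 1 to class 4, a motif was present at 47.2%, 58.1%, 64.0% and 71.0% of CTCF-only distal sites. The shares of shared distal sites were 42.6%, 62.1%, 67.7% and 76.4%, so that the CTCF-only share was the higher one in class 1.

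The 6 strongest CTCF-only distal sites had a lower −log10 q between 136 and 147. They lay near Umodl1 (chr17:31011267-31011970), in an exon of A830031A19Rik (chr11:24048935-24049912), near Tcf3, which encodes a basic helix-loop-helix transcription factor (chr10:80445805-80446861), in an intron of Efcab2 (chr1:178448998-178449702), near Gprc5b, which encodes an orphan G protein-coupled receptor (chr7:118995764-118996932), and near Gm9703 (chr17:27534541-27535512). At the Umodl1 site, CTCF ID had a fold enrichment of 15.2 and 18.7 over local background, and no motif passed the threshold. CTCFL ID had a peak in both replicates at the sites near Umodl1, in A830031A19Rik and near Tcf3, which also had RAD21 in both replicates of CTCF D and of CTCF ID. At the site near Gprc5b, CTCFL had no peak in any D or ID library.

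CTCFL had peaks at part of the CTCF-only distal sites. In D, where the rule kept out sites of both replicates, replicate 1 still had a peak at 24.6% of them and replicate 2 at 1.10%. CTCFL ID, which was not used to choose the sites, had a peak at 28.9% and 22.8% of CTCF-only distal sites, a mean of 25.8% ± 4.35 (SD, n = 2), against 97.8% and 96.0% of shared distal sites. Both replicates had a peak at 3038 CTCF-only distal sites (19.98%), against 55.4% of all CTCF ID sites. The share rose with strength, from 16.5% and 13.2% in class 1 to 57.6% and 48.9% in class 4. Replicate 1 of CTCFL D alone, a library used by the rule, had a peak at 3734 CTCF-only distal sites, and both CTCFL ID replicates had one at 55.3% of these. Among the 11308 sites with no CTCFL D peak in either replicate, both CTCFL ID replicates had a peak at 7.91%. The value for CTCFL ID therefore depended on how CTCF-only was defined, and it was 12.3% when neither CTCFL D replicate was allowed a peak and 10.5% when replicate 1 alone defined the sites.

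The chimera with the zinc fingers of CTCF occupied most CTCF-only distal sites, and the chimera with the zinc fingers of CTCFL few of them. LCL had a peak at 55.6% and 72.7% of the sites in D and at 70.9% and 70.7% in ID. CLC had a peak at 1.78% and 2.62% in D and at 19.0% and 18.1% in ID. The lowest LCL library lay above the highest CLC library. The means were 67.5% ± 7.97 for LCL and 10.4% ± 9.46 for CLC (SD, n = 4 libraries each), a difference of 57.1 percentage points (two-sided exact permutation test, p = 0.0286, the smallest p that 4 against 4 libraries allow, Benjamini-Hochberg adjusted p = 0.0429 over 6 tests). This test exchanged libraries freely between D and ID (70 arrangements), although CLC had a mean of 2.20% in D and 18.6% in ID. Its p-value therefore ignores the condition. With libraries paired by condition and replicate number, p was 0.125 (exact sign-flip test), the smallest that 4 pairs allow. An unpaired test within D and ID was not run.

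LCL and CLC differ in their termini as well as their zinc fingers, and the lists differed in length, from 31672 to 42362 peaks for LCL and from 9867 to 23899 for CLC. With the 9867 top-ranked peaks of every library the difference was 10.2 points (exact permutation test, p = 0.0286). Within a library, the share of CTCF-only relative to shared distal sites was compared as a log2 ratio, which also moved with list length, from −4.13 and −4.15 in CLC D to −2.23 and −2.29 in the longer lists of CLC ID. The ratio was −0.47 ± 0.14 for LCL and −3.20 ± 1.09 for CLC (SD, n = 4), a difference of 2.73 (exact permutation test, p = 0.0286, adjusted p = 0.0429). The tests with equal lists and with the ratio also exchanged libraries between D and ID, so that their p-values ignore the condition.

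CLC occupied 31.1% and 46.7% of shared distal sites in D and 89.2% and 88.4% in ID. Both replicates had a peak at 8202 CTCF-only distal sites (53.9%) for LCL D and at 10008 (65.8%) for LCL ID, against 71.3% and 78.9% of all CTCF ID sites. For CLC, both replicates had a peak at 218 (1.43%) in D and 2213 (14.6%) in ID, against 15% and 47.8% of all CTCF ID sites. In ID, the share of CTCF-only distal sites with an LCL peak ran from 46.3% and 46.2% in strength class 1 to 98.4% and 98.5% in class 4. For CLC ID it ran from 10.3% and 9.98% to 39.01% and 37.4%. Of the 2213 sites with CLC ID in both replicates, 75.6% also had CTCFL ID in both, and of the 3038 sites with CTCFL ID in both, 55.0% also had CLC ID in both. CLC had a peak in all 4 of its libraries at 84 CTCF-only (0.552%) and 3478 shared distal sites (28.9%), and the strongest CTCF-only one lay in an intron of Kcnip2 (chr19:45813112-45813805), which encodes a potassium channel-interacting protein. There CLC had a fold enrichment of 4.37 and 3.51 in D and of 3.32 and 4.77 in ID, and LCL of 2.47 and 2.77 in D and of 3.11 and 3.20 in ID.

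**Figure D1:**
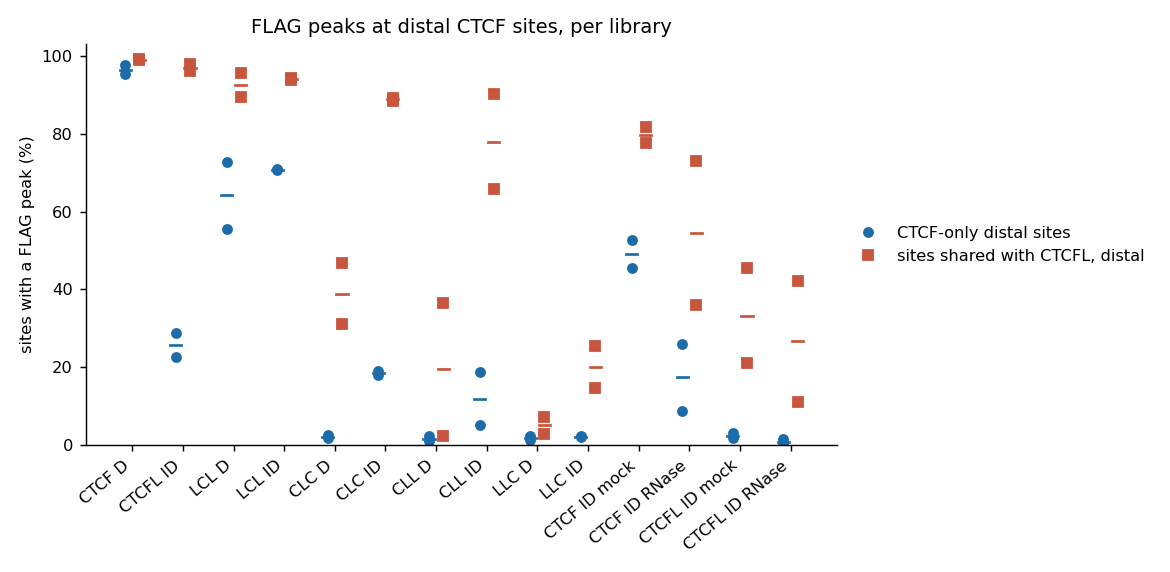
Share of CTCF-only (circles) and shared (squares) distal sites with a FLAG peak, in percent, with 1 point per library and a bar at the mean of the 2 libraries of a group. Among the chimeras, LCL had the highest shares at CTCF-only sites, from 55.6% to 72.7%, and CLC ID had 19.0% and 18.1% against 89.2% and 88.4% at shared sites.

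The other chimeras with the zinc fingers of CTCFL also had few peaks at CTCF-only distal sites. CLL had a peak at 1.03% and 2.33% of them in D and at 5.23% and 18.8% in ID, and LLC at 1.43% and 2.41% in D and 2.07% and 2.301% in ID. At shared distal sites CLL reached 65.8% and 90.1% in ID and LLC 14.6% and 25.5%. Both replicates had a peak at 747 CTCF-only distal sites (4.91%) for CLL ID and at 286 (1.88%) for LLC ID, against 33.6% and 7.32% of all CTCF ID sites. CLL and LLC were treated for 48 h by their labels, and their lists ran down to a −log10 q of about 1.30 where those of LCL and CLC ended near 2.00, so that no test was made between them.

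A small set of CTCF-only distal sites stood apart by peaks of LLC in D. Both replicates of LLC D had a peak at 217 of them (1.43%) and at 354 shared distal sites (2.94%). Of the 217 sites, 96.3% lay in strength class 1, and 0.922% had a motif. At 65.0% of the 217 sites CLC D had a peak in both replicates, against 0.514% of the other 14992 CTCF-only distal sites, and RAD21 in replicate 1 of CTCF ID marked 88.9% against 4.54%. LCL ID had a peak in both replicates at 10.1% against 66.6%. The cause of these peaks was not tested. Without such sites, the difference between LCL and CLC was 58.3 points and CTCFL ID had a peak at 25.02% of the sites.

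RAD21 was found at more CTCF-only distal sites in D than in ID. In the CTCF line, RAD21 regions overlapped 46.8% and 8.76% of the sites in D and 5.74% and 1.09% in ID. In the CTCFL line they overlapped 42.4% and 0.335% in D and 5.36% and 0.0855% in ID. In LCL the shares were 6.25% and 17.7% in D and 2.88% and 0.0789% in ID, and in CLC they were 1.38% and 7.09% in D and 1.03% and 0.309% in ID. In LCL and CLC both D libraries lay above both ID libraries, and the same held in the CTCF line, while in the CTCFL line replicate 2 of D lay below replicate 1 of ID. The mean was 16.3% ± 18.3 in D and 2.07% ± 2.33 in ID (SD, n = 8 libraries each), a difference of 14.3 points (two-sided exact permutation test within lines, p = 0.0154, adjusted p = 0.0429).

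The spread between replicates was as large as the mean, and the length of the RAD21 lists moved with the result, from 238 to 22765 regions in D and from 163 to 8593 in ID. Its part was not tested beyond equal lists of 163 regions, with which the difference was 0.129 points (exact permutation test, p = 0.00309). Lists of 163 regions can mark only a small part of 15209 sites, so that this setting says little about the size of the difference. The call did not pass 0.05 without replicate 2 of CTCFL ID (13.99 points, exact permutation test, p = 0.0525), without replicate 1 of CLC ID (14.1 points, p = 0.0648) or without replicate 2 of CLC ID (14.02 points, p = 0.0648), nor when 50% of the site had to be covered (1.76 points, p = 0.153). Both RAD21 replicates of CTCF D marked 1285 sites (8.45%) and both of CTCF ID 101 (0.664%), against 11% and 1.61% of all CTCF ID sites.

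In all 16 RAD21 libraries a lower share of CTCF-only than of shared distal sites had RAD21, and this difference was smaller between sites of like CTCF strength. The mean difference was −5.73 points (two-sided exact sign-flip permutation test, p = 3.05e-05, the smallest that 16 libraries allow, adjusted p = 0.000183). The test took every library as independent. They came from 4 lines and were all scored on the same sites, so that the p-value can overstate the evidence. Averaged over the 4 strength classes the mean difference was −1.29 points (p = 0.0480, exact permutation test), and when sites with a peak in both LLC D replicates were also left out it was 0.253 points (p = 0.708). In replicate 1 of CTCF D, the longest RAD21 list, CTCF-only distal sites had RAD21 at 27.1%, 41.6%, 62.4% and 79.99% from class 1 to class 4, and shared distal sites at 32.7%, 34.8%, 55.0% and 79.7%. The CTCF-only share was the higher one in classes 2 to 4 of that library. In replicate 1 of CTCFL D it was 34.1%, 63.7% and 86.8% in those classes, against 26.96%, 53.7% and 81.2% at shared distal sites. In the same classes the CTCF-only share was the lower one in replicate 2 of LCL D and of CLC D. For LCL D the shares were 9.19%, 25.7% and 56.9%, against 12.5%, 27.6% and 61.03% at shared distal sites. For CLC D they were 2.79%, 7.96% and 28.96%, against 5.37%, 11.4% and 35.3%. The direction at like strength thus differed between libraries.

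**Figure D2:**
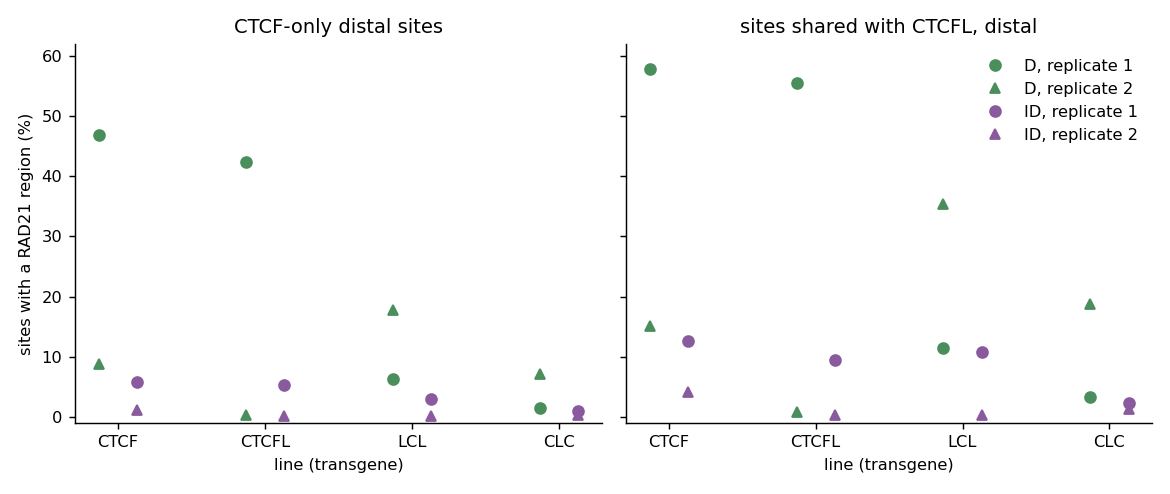
Share of CTCF-only (left) and shared (right) distal sites with a RAD21 region, in percent, for D (green) and ID (purple) in each line, with circles for replicate 1 and triangles for replicate 2. Among CTCF-only sites the D libraries of CTCF ran from 8.76% to 46.8%, and all 8 ID libraries lay at or under 5.74%.

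The 7121 CTCF-only distal sites with RAD21 in replicate 1 of CTCF D were stronger CTCF sites than the 8088 without, with a median lower −log10 q of 28.7 against 12.2. A motif was present in 62.9% against 52.9% of them. RAD21 in both replicates of CTCF D and of CTCF ID was found at 84 CTCF-only (0.552%) and 288 shared distal sites (2.39%), and the strongest CTCF-only ones were the sites near Umodl1, in A830031A19Rik and near Tcf3. At the Tcf3 site RAD21 had a fold enrichment of 5.84 and 5.50 in CTCF D and of 5.99 and 4.85 in CTCF ID.

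After RNase, CTCF had a peak at 17.45% ± 12.1 of CTCF-only distal sites, against 48.98% ± 5.08 in mock (SD, n = 2 libraries each), a comparison too small for any test to pass 0.05. The labels describe RNase treatment of chromatin before ChIP, the study's methods describe treatment of permeabilised cells, and the mock samples received DMSO. CTCF had a peak at 45.4% and 52.6% of CTCF-only distal sites in mock and at 26.0% and 8.86% after RNase, so that both RNase libraries lay under both mock libraries. The difference was −31.5 points (two-sided exact permutation test, p = 0.333, the smallest p that 2 against 2 allow, adjusted p = 0.333). At shared distal sites the shares were 77.7% and 81.6% in mock and 73.1% and 36.02% after RNase. In replicate 1 the RNase list was as long as the mock lists, with 24896 peaks against 23919 and 25374. In replicate 2, where it held 8584 peaks, list length and RNase cannot be told apart.

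Both mock replicates had a peak at 6487 CTCF-only distal sites (42.7%), and both RNase replicates at 1293 (8.50%), against 58.1% and 22% of all CTCF ID sites. Of the 6487 mock-bound sites, 55.2% had a peak after RNase in replicate 1 and 20.5% in replicate 2, and 43.9% in neither. Of the 9077 mock-bound shared distal sites, 87.3% and 47.5% had one and 12.4% had none. Mock-bound sites were divided into 4 classes of equal size by the lower −log10 q of the mock libraries, to compare sites of like strength. In replicate 1, the share of CTCF-only distal sites with a peak after RNase was 27.9%, 48.7%, 76.2% and 96.2% from the weakest to the strongest class, and that of shared distal sites was 67.2%, 79.3%, 93.8% and 99.6%. In replicate 2 the CTCF-only shares were 4.38%, 7.60%, 26.1% and 73.7% and the shared ones 9.97%, 19.5%, 48.1% and 88.5%. The CTCF-only share was the lower one in all 4 classes of both replicates. This comparison was made after the data were seen and rests on 2 RNase libraries, so that it has no test.

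**Figure D3:**
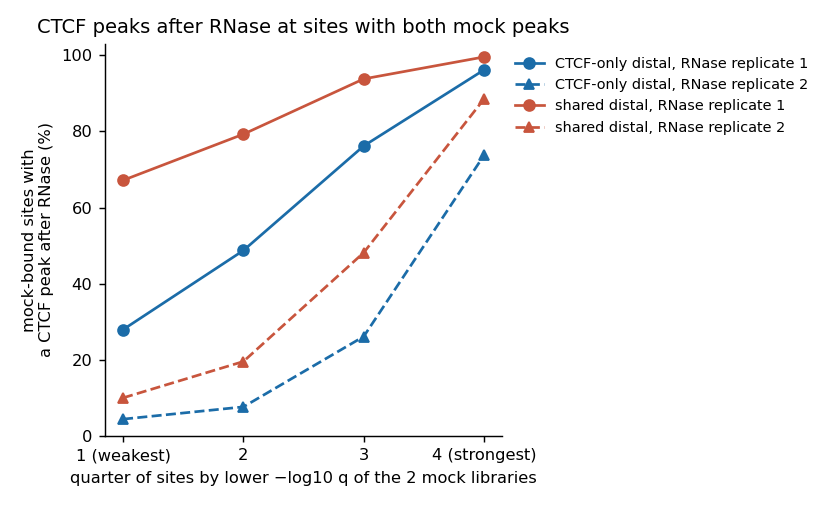
Share of mock-bound distal sites with a CTCF peak after RNase, in percent, by class of strength in the mock libraries, for CTCF-only (blue) and shared (red) sites, with circles and solid lines for replicate 1 and triangles and dashed lines for replicate 2. In replicate 1 the weakest class kept a peak at 27.9% of CTCF-only and 67.2% of shared sites, and the strongest at 96.2% and 99.6%.

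There were 2851 CTCF-only (18.7%) and 1126 shared distal sites (9.35%) with both mock peaks and no peak after RNase in either replicate. The strongest CTCF-only ones lay in an intron of Ralyl (chr3:13866212-13866817), in an intron of Impg1 (chr9:80385860-80386631) and between genes on the X chromosome (chrX:62180020-62180663). At the X site CTCF had a fold enrichment of 18.4 and 19.1 in CTCF ID and of 7.08 and 9.83 in mock. CTCFL in the same treatments had a peak at 1.89% and 3.07% of CTCF-only distal sites in mock and at 1.66% and 0.243% after RNase, a difference of −1.53 points (exact permutation test, p = 0.333, adjusted p = 0.333). These shares were low in mock already. At shared distal sites they were 21.2% and 45.4% in mock and 42.3% and 11.1% after RNase. The CTCFL lists held 8918 and 14347 peaks in mock and 9204 and 2526 after RNase. In replicate 2, list length and RNase cannot be told apart. Both CTCFL mock replicates had a peak at 258 sites (1.70%) and both RNase replicates at 29 (0.191%), against 11.3% and 6.8% of all CTCF ID sites.

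A higher share of CTCF-only distal sites than of the genome lay near chromatin domain edges, and the ratio of both was lower in I than in U for HiCratio edges and higher in I than in U for Crane edges. Domains in bins of 40 kb had been called with HiCratio and with Crane, with 1 list for each of 12 conditions and caller, so that no test between conditions was possible. In the CTCF line, 27.7% of CTCF-only distal sites were within 40 kb of a HiCratio domain edge in untreated cells, 18.2% in I, 28.8% in D and 25.3% in ID. The shares of all CTCF ID sites were 28.8%, 20.7%, 30.2% and 27.4%, and those of the genome 13.8%, 11.3%, 13.8% and 13.1%. Relative to the genome the CTCF-only distal sites stood 2.01-fold in untreated cells, 1.61-fold in I, 2.09-fold in D and 1.93-fold in ID. In the CTCFL line the ratio was 2.00 without treatment, 1.503 in I, 2.02 in D and 1.51 in ID. It was 2.04 in LCL D, 1.65 in LCL ID, 2.07 in CLC D and 1.62 in CLC ID. The ratio in ID thus came closest to that of U and D in the CTCF line, and in the CTCFL, LCL and CLC lines it lay between 1.51 and 1.65.

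The Crane lists left gaps of a median of 280 kb between domains, against 40 kb in the HiCratio lists, and the part of these gaps in the values was not tested. Between 19.1% and 20.1% of CTCF-only distal sites lay within 40 kb of a Crane edge over the 12 conditions, at 1.03 to 1.12 times the genome. The ratio for Crane edges was 1.03 in CTCF U and 1.12 in CTCF I, and 1.05 in CTCFL U and 1.09 in CTCFL I. With the middle of the gap between neighbouring Crane domains in place of the edge, the ratio was 1.67 in CTCF U, 1.33 in CTCF I, 1.73 in CTCF D and 1.61 in CTCF ID. The CTCF line thus kept the order that it had with HiCratio edges. The ratio was 1.31 in CTCFL ID, 1.27 in LCL ID and 1.26 in CLC ID, all under that of CTCF I, whereas with HiCratio edges LCL ID and CLC ID lay above CTCF I and above CTCFL ID. Of the Crane gap middles in CTCF U, 54.4% had a HiCratio edge within 40 kb. Of the middles of HiCratio gaps in CTCF U, 8.24% had a Crane edge within 40 kb, against 18.6% of the genome. Among CTCF-only distal sites, the strongest class had a HiCratio edge in CTCF U within 40 kb at 35.7% and the weakest at 23.0%.

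**Figure D4:**
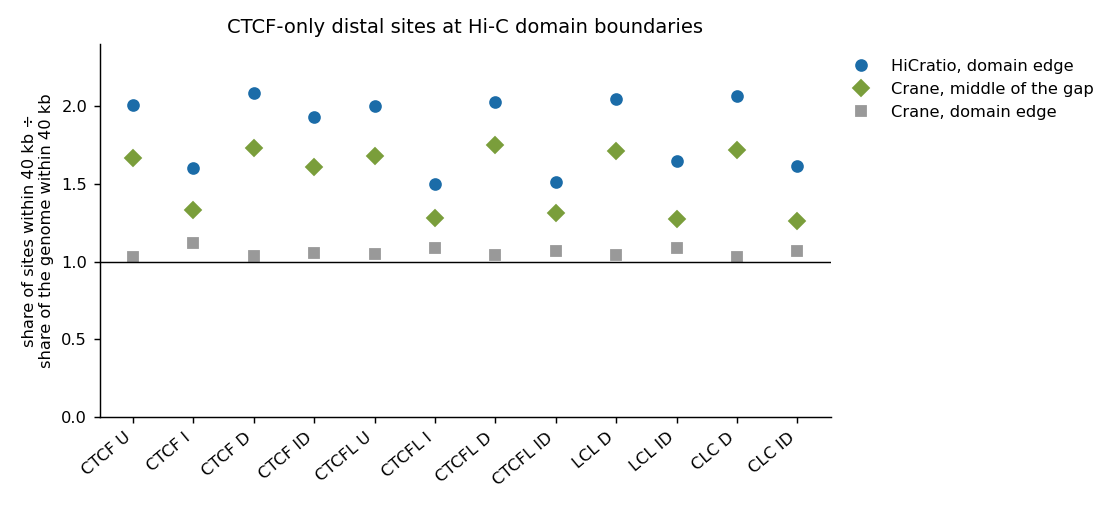
Share of CTCF-only distal sites within 40 kb of a boundary divided by the share of the genome within 40 kb, for each of 12 Hi-C conditions, with circles for HiCratio domain edges, diamonds for the middle of the gap between Crane domains and squares for Crane domain edges, and a line at 1. HiCratio edges gave 2.01 in CTCF U, 1.61 in CTCF I and 1.93 in CTCF ID, and Crane edges between 1.03 and 1.12 throughout.

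The strand of the motif followed the place of a CTCF-only distal site in its domain. In HiCratio domains of CTCF U, 70.1% of 1111 motifs in the first 10% of a domain (exact 95% interval 67.3 to 72.8, counting error only) and 29.9% of 1133 motifs in the last 10% (27.3 to 32.7) were on the plus strand. Motifs at domain ends therefore mostly pointed into the domain. In CTCF I the shares were 60.1% (56.9 to 63.2) and 37.5% (34.5 to 40.6), in CTCF D 71.5% and 29.3%, and in CTCF ID 65.1% (62.1 to 67.9) and 31.6% (28.8 to 34.4). The first 10% held 59.7% plus-strand motifs in CTCFL ID, 59.4% in LCL ID and 59.7% in CLC ID. In Crane domains of CTCF ID the shares were 57.6% (52.9 to 62.2) of 453 and 39.7% (35.4 to 44.2) of 501 motifs.

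**Figure D5:**
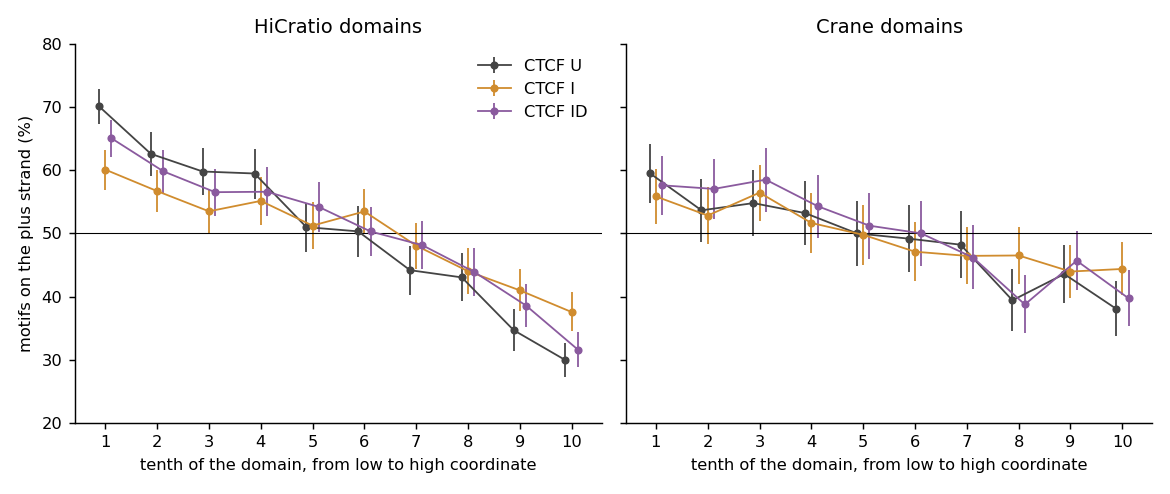
Share of CTCF motifs of CTCF-only distal sites on the plus strand, in percent with exact 95% intervals for counting error, by place in the domain in steps of 10% of its length, for HiCratio (left) and Crane (right) domains of CTCF U (grey), I (orange) and ID (purple). In HiCratio domains of CTCF U the share went from 70.1% at the start to 29.9% at the end, and in CTCF I from 60.1% to 37.5%.

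Of the CTCF-only distal sites, 28 (0.184%) lay within 40 kb of an edge of both callers in U, D and ID and of neither caller in I, as did 27 shared distal sites (0.224%). The opposite pattern was more frequent. Near an edge of both callers in I, but of both in none of U, D and ID, lay 245 CTCF-only (1.61%) and 215 shared distal sites (1.79%). The strongest of the 28 sites were in introns of Atxn7l1 (chr12:33333333-33334567) and Ttc22 (chr4:106630461-106631674) and 5.42 kb from a start site of Cdkn1c, which encodes a cyclin-dependent kinase inhibitor (chr7:143466131-143466819). At the Atxn7l1 site the nearest HiCratio edge stood at 26.1 kb in U, D and ID and at 106 kb in I, and CTCF had a fold enrichment of 5.77 and 5.19 after RNase.

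The CTCF-only distal sites nearest to the pluripotency genes Pou5f1, Esrrb, Klf4 and Nanog were all in strength class 1, as were 5028 of all 15209 CTCF-only distal sites. Pou5f1, which encodes Oct4, had one at 9.35 kb (chr17:35496326-35497007), with a CTCF ID fold enrichment of 7.11 and 5.05, LCL peaks in all 4 libraries and no peak of CTCFL, CLC or RAD21 in the CTCF line. Esrrb, which encodes an orphan nuclear receptor of the same network, had one in an intron (chr12:86484222-86484781), with LCL peaks in all 4 libraries, CTCF mock peaks of 3.36 and 4.72 and none after RNase. The site nearest to Klf4 stood at 81.2 kb (chr4:55451061-55451436) and had no LCL, CLC or CTCFL peak, and the site nearest to Nanog stood at 63.2 kb (chr6:122643974-122644630). The Nanog site had a lower −log10 q of 2.19, near the lowest value of the lists, and no CTCF D peak in either replicate.

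Hox clusters, the ordered arrays of homeobox genes, held sites as well. The site nearest to Hoxa5 lay in an intron of Hoxa3 (chr6:52211204-52212128), with a fold enrichment of 12.8 and 12.5 in CTCF ID, 7.08 and 7.47 in mock and 3.77 and 5.20 after RNase, and no CTCFL or CLC peak. The site nearest to Hoxb5 (chr11:96311501-96312008) had LCL peaks in all 4 libraries, and that nearest to Hoxd13 (chr2:74663612-74663907) had none. Within Xist and Tsix, the noncoding genes of the X-inactivation centre, a site (chrX:103477361-103478044) had a fold enrichment of 11.6 and 10.3 in CTCF ID, LCL peaks in all 4 libraries and no CTCFL peak. The site nearest to H19, an imprinted noncoding gene, stood at 94.2 kb (chr7:142671998-142672609), with LCL peaks of 4.17 and 4.38 in D and of 4.89 and 4.67 in ID. The site nearest to Lefty1 stood at 33.7 kb and had CTCFL ID peaks of 4.91 and 4.21. The site nearest to Shh stood at 2.71 kb and had no CTCFL or CLC peak. Sites at 34.9 kb from Hbb-bs, 78.7 kb from Gata6 and 19.5 kb from Sox17 had a CTCF ID fold enrichment of 4.85 to 6.14 in both replicates. The Hbb-bs site had CLC ID peaks of 4.58 and 4.23, a CTCFL D peak in replicate 1 and no LCL peak. The Gata6 site had CTCFL ID peaks of 6.25 and 4.69, and an LCL peak in replicate 2 of ID alone. The Sox17 site had CLC ID peaks of 4.73 and 3.76, and LCL peaks in D but not in ID. No CTCF-only distal site lay within 100 kb of Sox2, Myc, Hoxc8, Kcnq1ot1, Meg3 or Pax6.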

How the data were processed

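FLAG and RAD21 ChIP-seq peak lists and Hi-C domain lists of the samples described above were analysed. The authors trimmed reads (Trim Galore 0.4.4), aligned them to GRCm38/mm10 with Bowtie2, discarded duplicates and reads that were not uniquely mapped, and ran MACS on each replicate (RAD21 as broad regions). The −log10 q values and the fold enrichment (ratio) over local background were deposited by the authors. Hi-C domains were called by the authors in bins of 40 kb; scores in those lists were not used. The deposited RNA-seq signal (counts divided by size factors) served for markers. For groups labelled 24 h, the authors' methods give longer treatments.

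Overlapping peaks were merged, and 1 bp of overlap counted. Start sites came from 75451 positions of the basic set of GENCODE vM21. Strength classes divided distal sites at a lower −log10 q of 11.1, 26.1 and 51.0. A matrix of 14 positions, started from the consensus CTCF core, was re-estimated over 10 rounds on shared distal sites with 0.5 added per base, and a motif scored above the 95th percentile of windows 1000 bp away. Sequences came from RefSeq's GRCm38 copy, read with pysam 0.24.0 in Python 3.11.15 (numpy 2.4.6, scipy 1.17.1). Two-sided exact permutation tests compared libraries, the p threshold was 0.05, and adjustment was over 6 tests. The code was tested on simulated data.

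Named sites were the 6 strongest members, the member nearest to each of 20 chosen genes within 100 kb, and the first 3 by strength in each pattern of binding. Members, genes and tests were chosen with earlier results of these data known. IgG samples and gene expression tests were not used here.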

Additional observations from a re-analysis of the deposited data

How the results depend on the processing

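Unless stated here, results kept their direction and their side of the threshold. CTCFL ID overlapped 38.5% of the sites when shared meant over 66% overlap, 12.3% with no CTCFL D peak in either replicate, 21.1% with CTCF D in place of CTCF ID, 32.7% with peaks of −log10 q of at least 5, 10.5% without replicate 2 of the class libraries and 14.7% when 50% of the site had to be covered. The motif share was 58.6% at 66% overlap, 56.7% with CTCFL ID in place of CTCFL D, 40.5% with CTCF D, 60.5% at a −log10 q of 5, between 47.7% and 67.9% without either class replicate, 59.0% without sites with both LLC D peaks, 31.9% within 25 bp, 77.6% within 100 bp and 38.4% at the 99th percentile. The boundary share with HiCratio in CTCF ID was 26.2% at 66% overlap, 24.2% with CTCFL ID, 23.8% with CTCF D, 26.2% at a −log10 q of 5, 23.1% without class replicate 2, 18.5% within 20 kb, 36.9% within 80 kb, 2.56% near edges of both callers and 18.5% by gap middles. With Crane it was 10.05% within 20 kb, 40.7% within 80 kb and 13.03% by gap middles, against 19.8% for edges within 40 kb. Plus-strand shares with HiCratio were 65.1% in the first and 31.6% in the last 10% of a domain.

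The D minus ID difference of RAD21 did not pass 0.05 when 50% of the site had to be covered (1.76), in the CTCF and CTCFL lines alone (21.5), in replicate 1 alone (20.5) or replicate 2 alone (8.08), where the design cannot pass it, or with lists of 1000 or more regions (14.9). Leaving out each library gave 9.91 (without class replicate 2) to 16.6 points, and 13.99 to 14.1 where the call was lost. The RAD21 difference between CTCF-only and shared sites reversed to 0.253 points over strength classes without sites with both LLC D peaks. CTCFL ID overlapped 10.5% to 28.9% of the sites without each library. The difference of LCL and CLC ran from 46.3 (without class replicate 2) to 61.0 points without each library. With start sites of all GENCODE transcripts, 14786 sites remained CTCF-only and distal. Alternatives added after the data were seen were gap middles, strength classes, the LLC D sites, single replicates, RAD21 lists of 1000 or more regions and start sites of all transcripts. The causes were not tested.

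Replicate numbers were not treated as pairs in the main tests. Differences between same-numbered libraries correlated between −0.0224 and 0.235 over 6 pairs of groups, which does not exclude a pairing. The RAD21 list of replicate 1 was the longer one in both D and ID of the CTCF and CTCFL lines. In the LCL and CLC lines it was the longer one in ID alone. With the number as a block, the RAD21 difference was 14.3 points (exact sign-flip test, p = 0.00781) and that of LCL and CLC 57.1 points (p = 0.125, the smallest that 4 pairs allow).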
